A study of Homo sapiens with 4 samples.

Results

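Amino acid transporter genes carried 118 of the 17625 sites in a list of RNA positions deposited for P5CS. The genes were taken by name, as every assigned symbol of the solute carrier families SLC1, SLC3, SLC6, SLC7, SLC36, SLC38 and SLC43 that is not a pseudogene. The list named 12 of the 60 protein-coding genes of these 7 families. The study used NCI-H1299 cells, an established human lung cancer line, in 4 LACE-seq libraries. Of these, 2 used anti-P5CS and 2 used IgG, an antibody with no chosen target. LACE-seq reads the ends of cDNA made on immunoprecipitated RNA, and the series title puts the question of whether P5CS, the glutamate-to-proline enzyme encoded by ALDH18A1, binds RNA and takes part in translation. The list gives a position, strand, region and gene for each site, with no score and no value per library. No comparison of anti-P5CS with IgG could be drawn from it, the depth is unknown, and a listed site is not a measured excess over IgG. No count below has a replicate error, and intervals are exact binomial 95% intervals that cover counting error only. Sites of 1 gene share a transcript, so these intervals are too narrow.

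Amino acid transporters move amino acids across the plasma membrane or out of lysosomes. SLC7A5 (LAT1) is the light chain that carries large neutral amino acids such as leucine, and it reaches the cell surface bound to the heavy chain SLC3A2 (CD98). SLC1A5 (ASCT2) and SLC38A2 (SNAT2) carry glutamine and other neutral amino acids with sodium, and glutamine is a source of the glutamate that P5CS converts. Many of these genes are raised in tumours and respond to amino acid supply.

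The bases at 4 positions, which hold 7 of the 118 sites since 3 of them have a site on both strands, could be read from RefSeq sequence around gene starts. They are shown because their bases could be read in this way, and not for their distance from a start. Sites of SLC1A5 and SLC6A8 that also lay near a start are not shown. The SLC3A2 bases came from a window of that gene, and the other 3 from windows of noncoding genes that start nearby, SLC38A2-AS1 for both SLC38A2 positions and LOC105378248 for SLC38A1. They are written 5′ to 3′ on the strand of the transporter gene (build GRCh38.p14), with the 21 listed bases in capitals and 4 bases on each side in lower case. In order they are at chr11:62880920-62880940 on the plus strand, and chr12:46372700-46372720, chr12:46372640-46372660 and chr12:46268900-46268920 on the minus strand. The only site at chr12:46372700-46372720 was listed on the plus strand, opposite to the bases printed.
SLC3A2: cgcgGAGGCACAGAGGCCGGGGAGAgcgt
SLC38A2, nearer the start: agcaGCCCGACCACGCGTTACCGCAcgct
SLC38A2, farther from the start: aggaTTGGGGCGGCAATTTGTCTTTtcct
SLC38A1: cgcgTCCCCCAGTAGGAGAATGACTccga
The SLC3A2 site had 11 G, 4 C, 6 A and 0 T, a GC content of 71.4%. The 2 SLC38A2 sites differed in composition, with 71.4% GC nearer the start and 47.6% farther from it, and the SLC38A1 site had 52.4%. Over the 170 listed positions of 21 bases that lie whole in a RefSeq start window, the median was 66.7%. The bases of the other transporter sites are not analysed here.

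Of the 60 genes, 12 (20%, 10.8 to 32.3) had a listed site, and 48 had none. Among all 20056 protein-coding RefSeq genes 13.2% had one, so the interval of the transporters includes the background. By gene identifier the count was 13 of 60 (21.7%, 12.1 to 34.2), since SLC38A12 stands in the list under its older symbol TMEM104, with 1 site in its 3′ UTR class at chr17:74838880-74838900. Among 319 other SLC genes 49 had a site (15.4%, 11.6 to 19.8). The median span of the 60 genes in RefSeq was 46535 bases, against 33439 for other SLC genes and 24047 for other protein-coding genes, and the part of gene length in these shares was not tested.

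The families differed in how many sites they carried. SLC38, the sodium-coupled neutral amino acid family, had 63 sites (53.4% of the 118) in 3 of 12 genes, and SLC7, which holds the cationic transporters and the light chains, had 36 (30.5%) in 3 of 13 genes. SLC1, the glutamate and neutral amino acid family, had 11 sites in 2 of 7 genes. SLC3, the heavy chains, had 4 sites, all in SLC3A2, and SLC3A1 had none. SLC6, whose members also carry neurotransmitters and creatine, had 3 sites in 2 of 19 genes, and SLC36, the proton-coupled family, had 1 site in 1 of 4 genes. SLC43 had 0 sites in its 3 genes, SLC43A1, SLC43A2 and SLC43A3. The sites were concentrated in SLC38A10, with 48, and SLC7A5, with 31, which together held 66.9% of the total. SLC1A5 had 10 sites, SLC38A2 had 9, SLC38A1 had 6, SLC3A2 had 4 and SLC7A1 had 3, whereas SLC6A15 and SLC7A2 had 2 each and SLC1A6, SLC36A1 and SLC6A8 had 1 each. Protein-coding genes with a site had a median of 2.

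**Figure D1:**
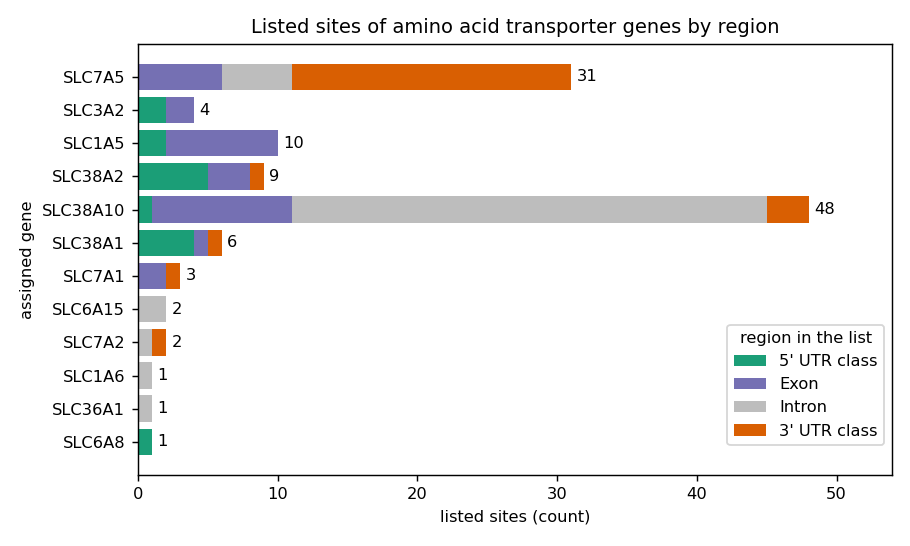
Listed sites per amino acid transporter gene (horizontal axis, count), split by the region the list gives, with the total beside each bar. SLC38A10 (48) and SLC7A5 (31) exceed every other transporter gene, with 34 of the 44 intron sites in SLC38A10 and 20 of the 27 sites of the 3′ UTR class in SLC7A5.

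SLC7A5 (chr16:87830023-87869507, minus strand) carried most of its sites near the end of the transcript. The list gives each site a class by region. Of the 31 sites, 20 lay in the 3′ UTR class, 6 in exons, 5 in introns and 0 in the 5′ UTR class. The 20 sites of the 3′ UTR class lay between 87830500 and 87832960, from 477 to 2937 bases before the end of the gene. Where overlapping sites of either strand are merged into 1 place, they formed 11 places that covered 331 of 2461 bases (13.4%), with gaps of 19 to 619 bases between neighbours. Among 381 protein-coding genes with a site of the 3′ UTR class, SLC7A5 ranked 2 by count, behind SCD with 24, a lipid desaturase gene named here after its value was seen. Exon 9 had 1 place at chr16:87834480-87834500, intron 2 had 1 at chr16:87851100-87851120, and intron 1 of the transcript named in the list had 3 within 261 bases.

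The strands of SLC7A5 sites were mixed. Of the 31 sites 17 lay opposite to the gene and 14 on its strand. At 12 of its 19 places both strands had a site, at 5 only the opposite strand did, and at 2 only the gene strand did. In the 3′ UTR class 9 of 11 places had both strands and the other 2 had the opposite strand alone. The 2 places with the gene strand alone were both in intron 1, on either side of a place with the opposite strand alone. SLC7A5-AS1, the antisense RNA gene inside SLC7A5, had 0 sites in its span.

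The sites in exon 1 of SLC7A5 recurred in its pseudogenes. Exon 1 had 3 places, and in order along the gene they began 147, 467 and 547 bases after the start. SLC7A5P1 (chr16:29613103-29613725) had 4 sites and SLC7A5P2 (chr16:21517893-21520444) had 5, each at 3 places, with the SLC7A5P2 sites listed under ENSG00000258186.2. In all 3 loci the first place was 21 bases wide with a site on both strands, and the second began 320 bases after it on the opposite strand alone. The third began after 400 bases in SLC7A5 and SLC7A5P1 and after 420 in SLC7A5P2, and it was 61, 21 and 41 bases wide in that order of loci. It had the opposite strand alone in SLC7A5 and SLC7A5P1 and both strands in SLC7A5P2. Reads from near-identical copies cannot be placed in 1 of them with certainty, so the 4 exon 1 sites of SLC7A5 are uncertain, and 27 of its sites lie outside exon 1. Of 10 pseudogenes of these families in RefSeq, the other 8 had no site in their span.

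**Figure D2:**
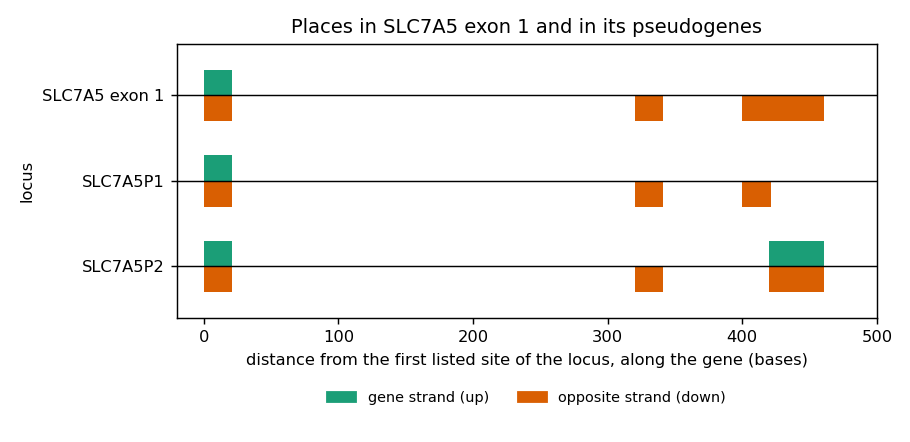
Places in exon 1 of SLC7A5 and in SLC7A5P1 and SLC7A5P2, by distance in bases from the first place of each locus along the gene (horizontal axis); bars above each line are sites on the gene strand and bars below it sites on the opposite strand, drawn to width. The first 2 places coincide in all 3 loci, and the third begins at 400 bases in SLC7A5 and SLC7A5P1 and at 420 in SLC7A5P2.

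SLC3A2 (chr11:62856109-62888860, plus strand), the heavy chain partner of SLC7A5, had 4 sites at 2 places, each with both strands. The first place, chr11:62880920-62880940, was in the 5′ UTR class and is the G-rich sequence shown above. It lay 24811 bases into the gene span but 24 bases after an annotated internal start of SLC3A2. Start windows ran from 250 bases before to 50 after a start. Among the 10 genes with such a window, only SLC3A2 had a site in its own. This depended on the window edge, since SLC38A2 and SLC1A5 had sites 53 and 54 bases after a start. SLC38A1 had no window at the start of its span. In start windows of any gene lay 8 of the 118 transporter sites and 354 of all 17625 listed sites (2.01%). The second place, chr11:62881160-62881180, was in exon 3 of 11 of the assigned transcript. The first start of SLC3A2 had no site near it, although the neighbouring noncoding gene SNHG1 had 16 sites, the nearest ending 488 bases ahead of the SLC3A2 span. The light chain genes known to pair with SLC3A2 are SLC7A5, SLC7A6, SLC7A7, SLC7A8, SLC7A10 and the cystine transporter SLC7A11. Of these 6, the 5 other than SLC7A5 had no site, and among all protein-coding genes only 13.2% had one.

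SLC1A5 (chr19:46774883-46788594, minus strand) had 10 sites at 6 places, all 21 bases wide and none in an intron. The 2 sites of the 5′ UTR class began 54 and 434 bases after the start, and both lay on the opposite strand alone. The other 8 sites were 4 exact pairs on both strands, in exon 1, exon 4, exon 6 and exon 8 of 8, at 914, 6134, 11274 and 12934 bases from the start. The places thus ran along the whole transcript, in contrast to the block at the end of SLC7A5.

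SLC38A2 (chr12:46358188-46372773, minus strand) had 9 sites at 6 places, with 5 sites in the 5′ UTR class, 3 in exons and 1 in the 3′ UTR class. Its 4 places nearest the start began 53, 113, 1413 and 1533 bases after it, and the last of these was in exon 2 of 16. The first is the GC-rich SLC38A2 sequence above and had the opposite strand alone, and the other 3 had both strands. The 2 places toward the end, in exon 16 and in the 3′ UTR class, had the opposite strand alone. Among 407 protein-coding genes with a site of the 5′ UTR class, SLC38A2 ranked 18 by count, a rank shared by 6 genes. The antisense RNA gene SLC38A2-AS1, which RefSeq places just beyond the start of SLC38A2, had 0 sites.

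**Figure D3:**
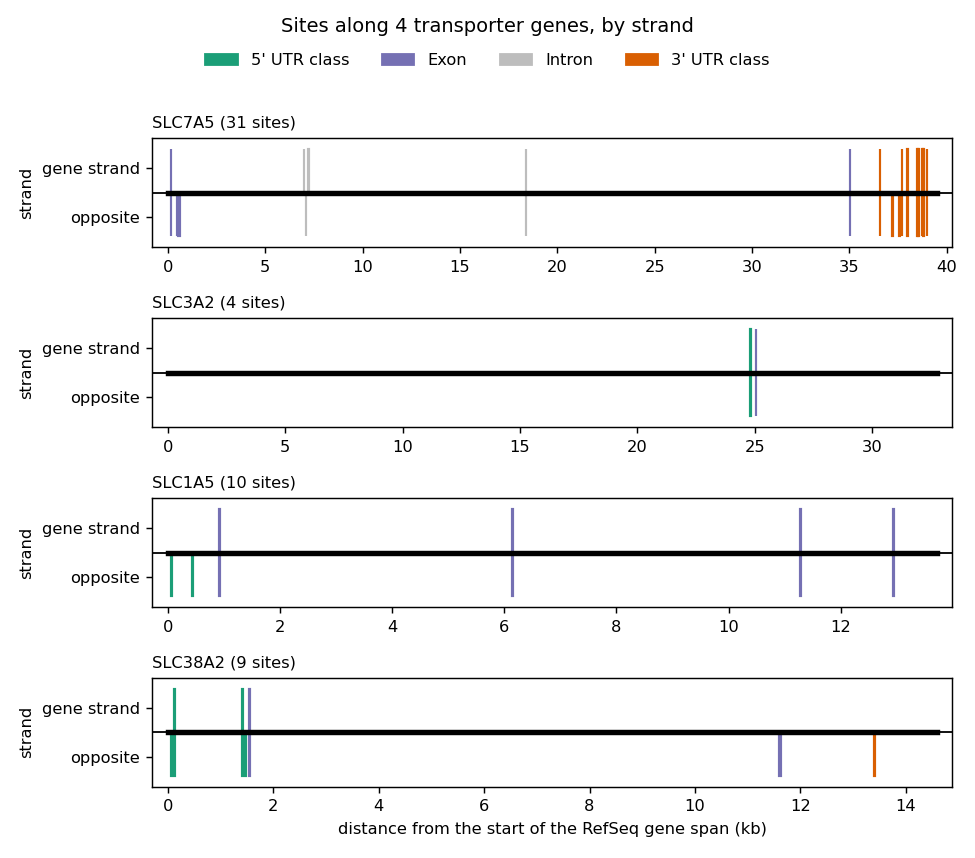
Sites along SLC7A5, SLC3A2, SLC1A5 and SLC38A2 by distance from the start of the RefSeq gene span (horizontal axes, kb, a scale for each gene), with sites on the gene strand above the line and sites on the opposite strand below it, coloured by region; marks are drawn slightly wider than the sites so that they can be seen. SLC7A5 has 20 sites of the 3′ UTR class at its end, the 4 sites of SLC3A2 stand at 2 places inside the gene, SLC1A5 is marked along its length, and SLC38A2 has 7 of 9 sites toward its start.

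SLC38A10 (chr17:81244811-81295307, minus strand), a broadly expressed member of the SLC38 family, had the most sites of the transporter genes. With 48 sites it ranked 13 of 2645 protein-coding genes with a site, a rank shared by 2 genes, and SLC7A5 ranked 32. Of its sites 46 (95.8%) lay in 8041 bases at its end, from exon 12 to the 3′ UTR class, which is 15.9% of the gene span. Intron 14 of the transcript named in the list alone held 31 sites at 18 places between 81247200 and 81251000. Of these places 13 had both strands, 5 the opposite strand alone and 0 the gene strand alone. Places covered 14.2% of that stretch of intron 14, and 13.4% of the 3′ UTR class stretch of SLC7A5. Each stretch was bounded by its own outermost sites, so the 2 shares say nothing on a likeness between the genes. The 3′ UTR class and exon 16 held 7 sites, exon 15 held 2, intron 13 held 3, exon 13 held 1 and exon 12 held 2. Outside this block there was 1 site in exon 10 and 1 in the 5′ UTR class, which began 267 bases after the start. No site was listed within 10000 bases beyond either end of SLC38A10, and none of its sites overlapped another RefSeq gene.

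**Figure D4:**
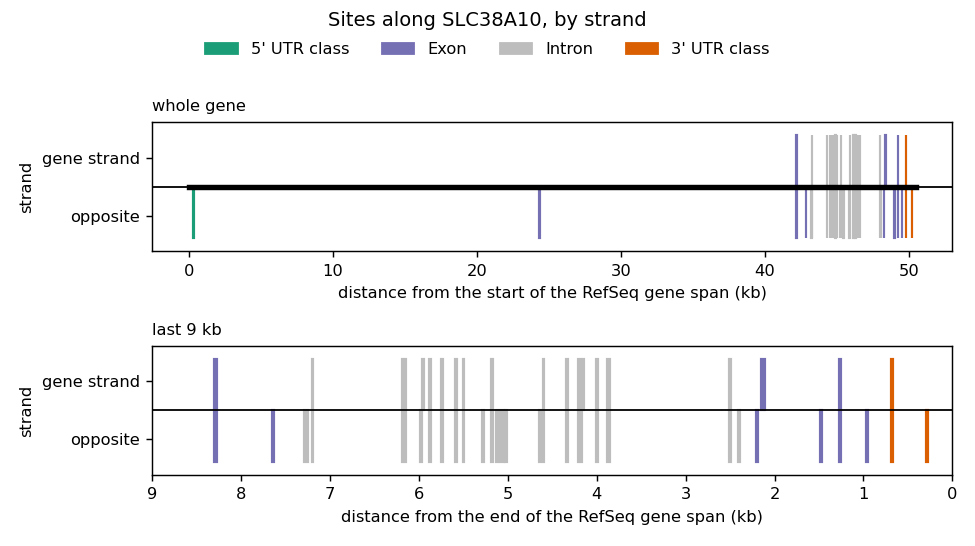
Sites along SLC38A10, over the whole gene by distance from its start (upper panel, kb) and over the last 9 kb by distance from its end (lower panel, kb), with gene strand sites above the line and opposite strand sites below it; marks are drawn slightly wider than the sites. The upper panel shows 46 of 48 sites in the block at the end, and the lower panel shows most of them in intron 14.

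SLC38A1 (SNAT1, chr12:46183063-46269043, minus strand), which like SLC38A2 carries glutamine, had 6 sites at 4 places, and 4 of the sites were in the 5′ UTR class. Its 2 places in that class began 123 and 463 bases after the start and had both strands, and the first is the SLC38A1 sequence above. Single sites on the opposite strand lay in exon 12 of 17 and in the 3′ UTR class. SLC7A1 (CAT1, chr13:29509414-29595688, minus strand), a transporter of arginine and lysine, had a pair of sites in exon 3 of 13 and 1 opposite strand site in the 3′ UTR class. SLC7A2 (CAT2, chr8:17494069-17570566, plus strand), a related cationic transporter, had 1 gene strand site in intron 7 of 12 and 1 opposite strand site in the 3′ UTR class.

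The remaining transporter genes had their sites in a first intron or near the start. SLC6A15 (chr12:84859491-84912799, minus strand), a neutral amino acid transporter of the brain, had 2 overlapping sites on opposite strands in intron 1, and both lay over the pseudogene LOC124903121. They were the only 2 of the 118 sites over another RefSeq gene. SLC1A6 (EAAT4, chr19:14950033-15010643, minus strand), a glutamate transporter, had 1 gene strand site in intron 1. SLC36A1 (PAT1, chr5:151344596-151556085, plus strand), a proton-coupled transporter found on lysosomes, had 1 opposite strand site in intron 1, 434 bases after an annotated start. SLC6A8 (chrX:153687926-153696593, plus strand), the creatine transporter, had 1 gene strand site in the 5′ UTR class, 94 bases after the start. Within 500 bases of the start of the gene span there were 10 places in 6 genes, namely SLC7A5, SLC1A5, SLC38A2, SLC38A10, SLC38A1 and SLC6A8. Of these places 4 had both strands, 5 the opposite strand alone and 1 the gene strand alone. The SLC7A5 places among them, at 147 and 467 bases, lie in exon 1 and are uncertain because of the pseudogene copies. No such count was made for other protein-coding genes, so this one has no counterpart.

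The shares by region depended on SLC7A5 and SLC38A10, which hold most of the sites. The 3′ UTR class held 22.9% (15.7 to 31.5) of the 118 transporter sites and 7.85% (7.32 to 8.40) of 9863 sites of other protein-coding genes. Without SLC7A5 the transporter share was 8.05%. The exon class held 27.1% (19.3 to 36.1), against 44.4% (43.4 to 45.4) elsewhere. Introns held 37.3% (28.6 to 46.7), against 36.3% (35.4 to 37.3), and without SLC38A10 the transporter share was 14.3%. The 5′ UTR class held 12.7% (7.29 to 20.1), against 8.29% (7.76 to 8.86). The transporter share was 20% without SLC38A10 and 24.5% with each gene given the same weight, a weighting not applied to other genes. Without both SLC7A5 and SLC38A10, the 39 transporter sites left were 41% in exons, 35.9% in the 5′ UTR class, 12.8% in introns and 10.3% in the 3′ UTR class. The gaps to other genes in exons and in the 3′ UTR class were then smaller, and those in introns and in the 5′ UTR class were larger. No p-value was computed for these shares, because sites of 1 gene are not independent.

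Along the gene span, 64.4% (55.1 to 73.0) of the transporter sites lay in the final 20% of the span, against 24.6% (23.7 to 25.5) of 8908 sites inside other protein-coding genes. Without SLC38A10 and SLC7A5, 20.5% (9.30 to 36.5) of the 39 sites left lay in the final 20% and 43.6% (27.8 to 60.4) in the first 20%, against 25.4% in the first 20% for other genes. The concentration at the end was therefore that of 2 genes. Per 10 kb of gene span SLC38A10 had 9.51 sites, SLC7A5 had 7.85, SLC1A5 had 7.29, SLC38A2 had 6.17 and SLC3A2 had 1.22, against a median of 0.467 over 2632 other protein-coding genes with a site. In all 7 of the 12 genes were above that median, and SLC38A10 alone was above 8.89, the bound of the upper 5% of other genes. The 5 below the median were SLC6A15 with 0.375, SLC7A1 with 0.348, SLC7A2 with 0.261, SLC1A6 with 0.165 and SLC36A1 with 0.0473.

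By strand, 70 of the 118 sites (59.3%, 49.9 to 68.3) lay opposite to the gene, against 59.9% (58.9 to 60.9) for other protein-coding genes. Opposite strand sites outnumbered gene strand sites in 7 genes, equalled them in SLC3A2, SLC6A15 and SLC7A2, and were absent from SLC1A6 and SLC6A8. Exact pairs on both strands held 57.6% (48.2 to 66.7) of the transporter sites and 45.4% (44.4 to 46.4) of the others. With each transporter gene given the same weight the transporter share was 37.3%. No share weighted in this way was computed for the others, so that value has no counterpart. Over 76 places, 55.3% (43.4 to 66.7) had both strands, 36.8% (26.1 to 48.7) the opposite strand alone and 7.89% (2.95 to 16.4) the gene strand alone. For 6993 places of other protein-coding genes these shares were 39.8%, 44.3% and 15.9%. The 6 places with the gene strand alone were in SLC7A5, with 2, and in SLC38A10, SLC7A2, SLC1A6 and SLC6A8, with 1 each. No other RefSeq gene lay under 116 of the 118 sites on either strand. The sources used do not state whether the listed strand is that of the RNA or of its cDNA, so which strand was bound cannot be told.

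**Figure D5:**
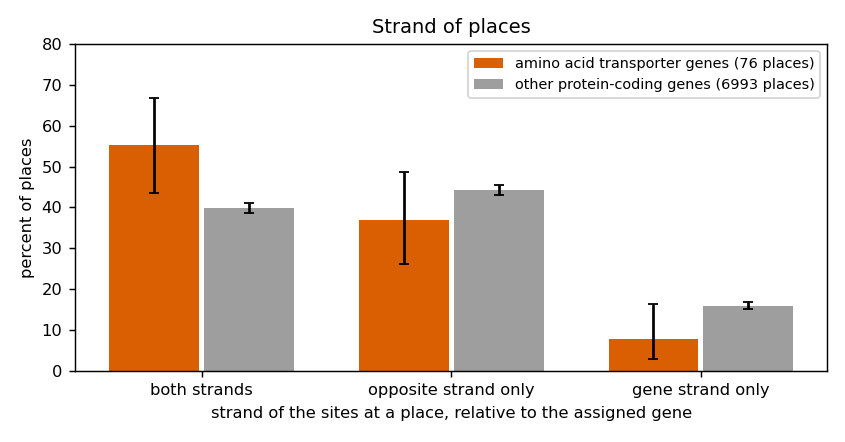
Share of places (vertical axis, percent) with sites on both strands, on the opposite strand alone and on the gene strand alone, for amino acid transporter genes and for other protein-coding genes, with exact binomial 95% intervals. Both groups have fewest places with the gene strand alone, 7.89% and 15.9%.

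Other genes of amino acid supply had at most 4 sites each. In the response to amino acid shortage through the kinase GCN2 and the factor ATF4, 7 of 20 genes (35.0%) had a site, with 10 sites in all. GCN1, which activates GCN2, had 3, EIF2AK4, which encodes GCN2, had 2, and ATF3, CHAC1, DDIT4, NUPR1 and the leucine sensor SESN2 had 1 each. Among genes that sense amino acids upstream of the growth kinase complex mTORC1, 6 of 33 (18.2%) had a site. Among them RPTOR had 4 and MTOR had 2, both parts of the complex. CASTOR2, the small GTPase gene RRAGA and again SESN2, which is on both lists, had 1 each. In proline and glutamate metabolism 3 of 22 genes (13.6%) had a site, among them GLUL, which encodes glutamine synthetase, and PRODH2 with 1 each. Of 13 mitochondrial and vesicular carriers 2 (15.4%) had a site, with 1 each in SLC25A22 and SLC25A44. Of 9 other amino acid or peptide transporters 1 (11.1%) had a site, SLC15A3 with 2. The highest count in these lists, 4 in RPTOR, was below those of SLC38A10, SLC7A5, SLC1A5, SLC38A2 and SLC38A1. It equalled that of SLC3A2 and was above those of the other transporter genes with a site. The share of genes with a site in each list is to be read against the 13.2% of all protein-coding genes.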

How the data were processed

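The data are 1 list of sites for 4 libraries, 2 anti-P5CS and 2 IgG, grouped by sample title. Whether the 2 libraries of a group are separate cultures is not stated, and no per-library column was present (0 left unused). The authors deposited positions, strands, regions and gene names, per the file headers. Tools fastp 0.23.2 and STAR 2.7.10a and the build hg38 are named in the submitters' processing notes. How sites were called, at what threshold, with what use of IgG and with what pooling is not given in the sources used. Site starts and ends are multiples of 20 bases, so a site places a contact only to that step. Of the list's sites 3465 had no symbol.

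Gene names followed the list. Gene spans, gene classes and the start windows came from RefSeq tables for GRCh38.p14. Distances were taken from the RefSeq span to the nearer edge of a site. Region shares use the region column. Overlap needed at least 1 base. All transporter genes with a site are named, SLC7A5, SLC3A2, SLC1A5 and SLC38A2 first, and the genes with most sites in each list of related genes. Of the related genes, SLC66A4 and BMT2 were not matched. Some related genes are not reported here by name. The genes and lists were chosen with earlier results of these data known. The merging of sites into places was tested on simulated sites of equal width, either set apart or at the same bases on both strands. Partly overlapping sites were not simulated. Software was Python 3.11.15 with scipy 1.17.1, pandas 2.3.3, numpy 2.4.6 and matplotlib 3.10.9.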

Additional observations from a re-analysis of the deposited data

How the results depend on the processing

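No paired analysis was possible because the list holds no value per library, and for the same reason no replicate could be left out and no stricter score applied. Of 85 alternatives for 12 results, 59 stayed within the limits set for a count or within the interval of a share. For each result, an alternative counted in the 59 left out sites whose region text named another gene. It could not change any value, since 0 of the 118 sites had such text. With only sites wider than 21 bases, counts fell to 23 sites in 5 genes, with 6 in SLC7A5, 2 in SLC38A2, 0 in SLC3A2 and 0 in SLC1A5, and 34.8% of sites were in exact pairs. With sites within 100 bases merged, there were 57 sites, 12 in SLC7A5, 6 in SLC1A5, 4 in SLC38A2 and 2 in SLC3A2. With each pair counted once, SLC1A5 had 6 and SLC3A2 had 2. With pairs left out, 72.0% of sites lay opposite to the gene. With each gene given the same weight, the 5′ UTR class held 24.5%, the 3′ UTR class 15.2% and exact pairs 37.3%. Without SLC7A5, the 3′ UTR class held 8.05%. Without SLC38A10, a setting added after seeing the data, 70 sites were left, with 14.3% in introns and 34.3% in the 3′ UTR class. Without SLC7A5 and SLC38A10, also added later, exons held 41%, introns 12.8%, the 5′ UTR class 35.9% and the 3′ UTR class 10.3%. Each of these follows from which sites were counted or how they were weighted.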

Other observations

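Among the 319 other SLC genes, which carried 132 sites in all, SLC16A3 had 21 and SLC25A6 had 20, more than any other gene of that group. SLC16A3 exports lactate and SLC25A6 exchanges ADP and ATP across the inner mitochondrial membrane. SLC66A2 followed with 7 and SLC39A11, a zinc transporter gene, with 6. These genes were named after their values were seen.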
